A study of Mus musculus with 9 samples.

Results

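The histone cluster genes of the mouse are the genes of the 4 Hist clusters, which code for the linker histone H1 and for the core histones H2A, H2B, H3 and H4. All genes whose symbol begins with Hist1h, Hist2h, Hist3h or Hist4h were taken if they reached 50 UMIs (unique molecular identifiers, each standing for 1 captured RNA molecule) over the 9 libraries. Of 67 such symbols among the 31053 genes counted, 62 were kept, as were 14241 genes of all kinds at the same limit. The others were Hist2h2aa2 and Hist1h1t with 6 UMIs each, Hist1h2aa with 1, and Hist1h2ba and Hist1h2bq with 0. Nearest to the limit on the inside were Hist1h3h with 59 UMIs and Hist1h2ah with 96. The genes were thus chosen by their UMI totals, and they were then placed by whether they followed Top2a, a DNA topoisomerase made in dividing cells, from cell to cell.

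The study sorted lineage-negative, cKit-positive, Sca1-positive cells (LSKs, the hematopoietic stem and progenitor cells of the bone marrow) from C57BL/6 mice and asked how age and the drug CASIN, an inhibitor of the small RhoGTPase Cdc42, changed their RNA. Controls were young mice of 10 to 12 weeks and aged mice of more than 80 weeks, and a further group of aged mice was given CASIN. CASIN was injected intraperitoneally at 25 mg/kg in cyclodextrin every 24 hours for 4 days with harvest on day 5, and both control groups received cyclodextrin alone, so that all 3 groups carried the vehicle. Sorted cells of all groups were frozen viably, thawed and made into 3′ libraries from poly(A) RNA, 3 libraries per group. The labels do not say whether a library held the cells of 1 mouse or of several, so p-values measure the spread between these libraries only.

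The labels name 2 sequencing batches, and they stood apart before any histone gene was counted. Batch 1 held young 1 and 2, aged 1, and CASIN 1 and 2. Batch 2 held young 3, aged 2 and 3, and CASIN 3. Limits of 1000 to 40000 UMIs, at most 6000 genes and at most 10% mitochondrial UMIs kept 15975 of 32387 barcodes, which was 56.7–86.5% of the barcodes in batch 1 but 31.8–38.8% in batch 2. Libraries held 19237354 to 42780953 UMIs, and kept cells had a median of 9558 to 14607.5 UMIs. The sorting markers Kit (111–225 CPM, the UMIs of a gene scaled to a common library total), Ly6a, which codes for Sca1 (92.2–205 CPM), and Ptprc (86.6–213 CPM) were present in every library. Markers of B cells summed to 158–6423 CPM in batch 1 and 6901–14917 CPM in batch 2, nearly all of it the immunoglobulin gene Igkc. A total of 155 kept cells carried a barcode that was kept in more than 1 library, and the effect of leaving them out is given with the limits.

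Replication-dependent histone genes are transcribed when DNA is copied, because new DNA must be wrapped in new nucleosomes. Most of their mRNAs do not end in a poly(A) tail but in a short stem-loop, which the protein SLBP binds and which directs 3′ processing and decay of the mRNA at the end of S phase. Some of the same genes can also make a polyadenylated mRNA from a signal downstream, in particular in cells that no longer divide. A library primed on poly(A) therefore sees only a fraction of histone mRNA, and the UMIs given here count polyadenylated or internally primed molecules. Each UMI was a 3′ tag and was not divided by transcript length, so the order of genes by UMIs is an order of captured molecules only.

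The letters of the stem-loop element were searched in all GENCODE M21 transcript models (GRCm38). A 16-base pattern of the stem-loop, open to any base at 3 places, stood in 49 of 141767 models (0.0346%), and it was present in 40 of the 62 histone cluster genes (64.5%) but in 47 of all 55450 genes (0.0848%). A median of 31 bases separated it from the stop codon, with a range of 21 to 58. The forms found were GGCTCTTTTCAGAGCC in 25 of the histone genes, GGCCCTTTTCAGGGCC in 7, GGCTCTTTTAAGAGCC in 5, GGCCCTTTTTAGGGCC in 2 and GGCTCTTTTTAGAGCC in 1. Models that lacked the element ended at a median of 1 base after the stop codon, so that the region was not covered by many of them, against 156.5 bases in models that held it. The elements of the genes that the results turn on follow, with the element in capitals and the coding strand read 5′ to 3′.
Hist1h2ap (chr13:21833026-21833049, minus strand): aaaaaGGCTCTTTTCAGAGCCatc
Hist1h2ae (chr13:23570659-23570688, minus strand): acaaaGGCTCTTTTCAGAGCCattcactta
Hist1h1e (chr13:23621773-23621802, minus strand): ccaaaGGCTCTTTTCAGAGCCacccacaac
Hist1h1c (chr13:23739507-23739536, plus strand): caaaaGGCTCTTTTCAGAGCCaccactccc
Hist1h3c (chr13:23745038-23745067, minus strand): aaaaaGGCTCTTTTAAGAGCCacctaagat
Hist1h4i (chr13:22040957-22040986, minus strand): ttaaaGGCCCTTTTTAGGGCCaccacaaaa
Hist2h4 (chr3:96262930-96262959, minus strand): ctaacGGCCCTTTTTAGGGCCaaccacagt
Hist3h2a (chr11:58955167-58955196, plus strand): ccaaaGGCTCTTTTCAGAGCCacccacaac
Hist4h4 (chr6:136803989-136804018, minus strand): acaaaGGCCCTTTTCAGGGCCcacaaagca

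A hexamer that can direct polyadenylation, AATAAA or ATTAAA, stood in the last 40 bases of a model of 15 of the 62 genes (24.2%), against 42.8% of all genes, and 11 of the 15 held the stem-loop element too. Hist1h1c was among them, with the element 24 bases after its stop codon and 880 bases of model after that stop. Hist1h2bc differed from most of the genes in structure. Its model of 1156 bases had 2 exons and 742 bases after the stop codon, with no stem-loop element and 1 hexamer further than 40 bases from its end. Hist1h2br also had a model of 2 exons without the element, with 823 bases after the stop codon. Hist2h2be had 2192 bases after it and no element. Hist1h1b, like several other genes, ended at its stop codon in the annotation, so neither signal could be looked for. The hexamers of 4 genes are shown in capitals because the results return to these genes.
Hist1h2bc (chr13:23692450-23692479, plus strand): tgatgtatatatAATAAAtgtcatgtaaag
Hist1h1c (chr13:23740330-23740359, plus strand): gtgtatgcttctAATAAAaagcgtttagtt
Hist1h4i (chr13:22040639-22040668, minus strand): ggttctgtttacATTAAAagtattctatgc
Hist3h2a (chr11:58956785-58956814, plus strand): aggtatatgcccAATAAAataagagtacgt

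Of the UMIs of the 62 genes, the Hist1 cluster on chromosome 13 gave 474445 from 50 genes, Hist2 on chromosome 3 gave 15686 from 9, Hist3 on chromosome 11 gave 9182 from 2, and Hist4 on chromosome 6 gave 1090 from Hist4h4 alone. By family, the 16 H2A genes gave 252004 UMIs and the 5 H1 genes 110852. The 13 H4 genes gave 54242, the 16 H2B genes 53031 and the 12 H3 genes 30274. Hist1h2ap alone gave 137871 UMIs. Many copies were near-identical, and 25 genes had fewer than 50% of the 50-base words of their last 200 bases in no other histone model. Hist1h2ap shared all of those words with other H2A genes, Hist1h3e shared them with Hist1h3f, and the last part of Hist1h1e (chr13:23620629-23621124) lay inside Hist1h2be on the same strand. Counts of these genes are uncertain for that reason, whereas Hist1h1b, Hist1h1a, Hist1h1c, Hist1h2bc, Hist2h4 and Hist4h4 shared no such word at their ends.

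Across cells, 54 of the 62 genes followed Top2a, with a mean Pearson correlation over the 9 libraries of 0.10 or more. This correlation placed the genes and is given as a description. The highest were Hist1h1b, the linker histone H1.5, at 0.689, Hist1h3c, an H3 gene, at 0.672, and the H2A genes Hist1h2ap at 0.655 and Hist1h2ae at 0.643. Cells with at least 2 Top2a UMIs (1544 cells, each thinned to 4000 UMIs) had 27.0 times the Hist1h3c CPM of the 12548 cells with none, 21.7 times that of Hist1h1b and 9.66 times that of Hist1h2ap. Hist1h1c, the linker histone H1.2, was at the other end of the 54 with a correlation of 0.113 (0.0274 to 0.255 over libraries) and a ratio of 1.41. Just inside the limit lay Hist2h3c1 at 0.101 and Hist1h4m at 0.107, and just outside lay Hist2h2ab at 0.09995 and Hist1h3h at 0.0978.

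**Figure D1:**
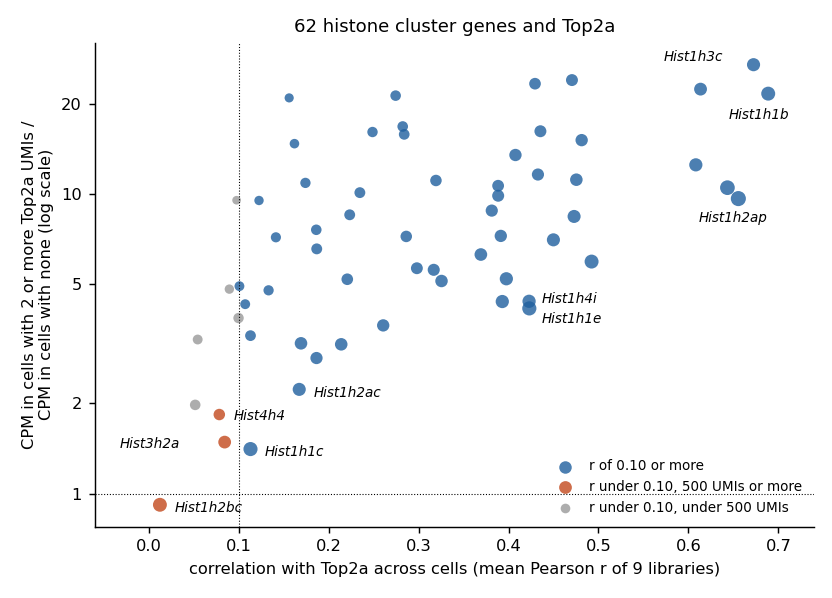
Each point is 1 of the 62 histone cluster genes, with its mean correlation with Top2a over 9 libraries on the x axis and, on a log y axis, its CPM in cells with 2 or more Top2a UMIs divided by its CPM in cells with none. Larger points have more UMIs, dotted lines mark a correlation of 0.10 and a ratio of 1, and Hist1h2bc is the lone gene with a ratio under 1 (0.918).

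The genes that did not follow Top2a were 3 with at least 500 UMIs, namely the H2B gene Hist1h2bc (0.0126), the H2A gene Hist3h2a (0.0845) and the H4 gene Hist4h4 (0.0786). Hist3h2a and Hist4h4 had CPM ratios of 1.49 and 1.84 between cells with and without Top2a, above that of the follower Hist1h1c (1.41). Their placing depended on the measure. With the proliferation gene Mki67 in place of Top2a, Hist3h2a was above the limit (0.112) and Hist4h4 below it (0.0827). With Spearman's correlation, Hist4h4 was above it (0.119) and Hist3h2a below it (0.0987). The other 5 genes below the limit, Hist2h2be, Hist2h2ab, Hist1h2ao, Hist2h3c2 and Hist1h3h, held 1085 UMIs between them and were too sparse to place. Hist1h2bc was well above that floor with 23854 UMIs, seen in 43.3% of cells, and its correlation ranged from -0.0758 to 0.15 over the libraries.

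Hist1h2bc shares its promoter region with an H2A gene that did follow Top2a. In all, 10 pairs of an H2A and an H2B gene lay head to head with 175 to 301 bases between them. In the pair at hand, Hist1h2ac (7837 UMIs, correlation 0.167) and Hist1h2bc (0.0126) were 250 bases apart. Hist2h2ac (7533 UMIs) and Hist2h2be (390 UMIs, too sparse to place), 238 bases apart, had 0.473 and 0.0518. Hist1h2ae (75227 UMIs) and Hist1h2bg (2614 UMIs), 175 bases apart, had 0.643 and 0.187. In both of these pairs, the gene with the lower correlation had far fewer UMIs. In contrast, the H2A and H2B genes of the pair Hist1h2ak (1541 UMIs) and Hist1h2bn (2000 UMIs) had 0.388 and 0.389. Hist1h2ac and Hist1h2bc thus shared an intergenic stretch and differed in their relation to Top2a, with the lower correlation in Hist1h2bc, which had more UMIs (23854).

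Promoter sequences of 250 bases before the start were available for 56 of the 62 genes (RefSeq, GRCm38.p6). On either strand, the CCAAT box CCAAT stood in 45 of 56 (80.4%) against 37.5% of 27025 genes, the TATA box TATAAA in 27 (48.2%) against 14.3%, and the octamer ATTTGCAT in 12 (21.4%) against 1.81%. All 12 octamers were in H2A or H2B promoters (6 of 15 and 6 of 14). The H1 box AAACACA stood in 4 of 5 H1 promoters and in 2 others (10.7% of 56), against 7.20% of all genes. Hist1h2ac is shown because its window spans the gap to Hist1h2bc, and Hist1h1b and Hist1h1c because they are the H1 genes with the highest and lowest correlation with Top2a. Capitals mark these motifs on either strand.
Hist1h2ac (chr13:23683960-23684209, minus strand): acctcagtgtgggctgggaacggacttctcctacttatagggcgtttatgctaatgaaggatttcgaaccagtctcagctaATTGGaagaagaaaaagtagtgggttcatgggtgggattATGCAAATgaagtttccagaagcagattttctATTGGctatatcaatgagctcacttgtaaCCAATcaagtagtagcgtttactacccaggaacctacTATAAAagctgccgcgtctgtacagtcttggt
Hist1h1b (chr13:21780626-21780875, minus strand): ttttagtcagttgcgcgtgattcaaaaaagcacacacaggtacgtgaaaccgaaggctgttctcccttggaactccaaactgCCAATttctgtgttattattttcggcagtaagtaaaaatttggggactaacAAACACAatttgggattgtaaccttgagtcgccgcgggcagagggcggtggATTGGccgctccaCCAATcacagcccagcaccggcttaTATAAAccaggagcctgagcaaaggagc
Hist1h1c (chr13:23738557-23738806, plus strand): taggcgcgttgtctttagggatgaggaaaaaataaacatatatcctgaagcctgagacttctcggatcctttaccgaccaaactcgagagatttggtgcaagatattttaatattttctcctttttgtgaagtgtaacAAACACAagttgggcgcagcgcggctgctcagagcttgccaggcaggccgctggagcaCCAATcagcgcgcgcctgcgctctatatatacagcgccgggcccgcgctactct
Hist1h1b held both a TATA box and the H1 box, and Hist1h1c held the H1 box and a CCAAT box without the letters TATAAA.

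Cells were next divided by cell cycle scores from Seurat's S and G2/M lists, which hold no histone cluster gene, after thinning to 4000 UMIs. Of 15606 cells scored, 9343 had neither score above 0 (non-scoring), 4145 were S-scoring and 2118 were G2/M-scoring, with 2013 cells within 0.02 of a limit. Since the G2/M list holds Top2a, these levels also are a description. The same list holds Cenpa, a histone gene outside the clusters. All 62 genes had a higher mean CPM in G2/M-scoring than in S-scoring cells, by a median of 2.53 times among the followers, although the difference had the same direction in all 9 libraries for 15 genes only. Together, the followers took 0.237–0.328% of UMIs in S-scoring and 0.699–1.02% in G2/M-scoring cells of batch 1. In batch 2, the ranges were 0.127–0.209% and 0.159–0.216%. In young 3, the G2/M-scoring share (0.195%) was below the S-scoring one (0.209%). Among the 54 followers, 48 were above non-scoring cells in S-scoring cells in all 9 libraries, by a median of 4.24 times.

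Hist1h3c was seen mostly in scoring cells, with a mean of 0.620 CPM in non-scoring, 40.4 in S-scoring and 135 in G2/M-scoring cells. Hist1h1b had 4.74, 149 and 355 CPM in the same order. Hist1h2ap, the gene with the most UMIs, had 144, 768 and 1815 CPM. These 3 genes were higher at each step of the means and had S-scoring above non-scoring cells in 9 of 9 libraries.

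A few genes showed another order, lowest in S-scoring cells. Hist1h2bc had a mean of 122 CPM in non-scoring, 59.3 in S-scoring and 174 in G2/M-scoring cells, and S-scoring cells were below non-scoring cells in 9 of 9 libraries. Hist1h1c did likewise with 159, 90.4 and 222 CPM, although it was placed among the followers. Hist3h2a had 25.7, 15.7 and 36.1 CPM, with S-scoring cells above in 3 of 9 libraries. The follower Hist3h2ba had 14.7, 13.3 and 40.7 CPM, with S-scoring cells above in 4 of 9 libraries. By its means, Hist1h2ac was not lowest in S-scoring cells, with 28.1 and 30.6 CPM in non-scoring and S-scoring cells. It was higher in S-scoring cells in 4 of 9 libraries. Hist4h4 was not lowest in S-scoring cells either, with means of 4.11, 5.09 and 7.47 CPM in non-scoring, S-scoring and G2/M-scoring cells. Its S-scoring cells were above non-scoring cells in 6 of 9 libraries, and its G2/M-scoring cells in 9 of 9. Hist1h1e, the linker histone H1.4, had a mean of 98.0 CPM in non-scoring cells. Its means were 1.40 times that level in S-scoring and 3.47 times in G2/M-scoring cells. The mean of 98.0 CPM describes neither batch, since Hist1h1e was far lower in batch 2 in these cells (log2 fold change -3.51). Its share of H1 UMIs, with H1f0 and H1fx counted in, was 28.4–44.3% in batch 1 and 3.55–8.64% in batch 2. In S-scoring cells, the shares were 24.5–35.5% and 13.3–17.1%.

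**Figure D2:**
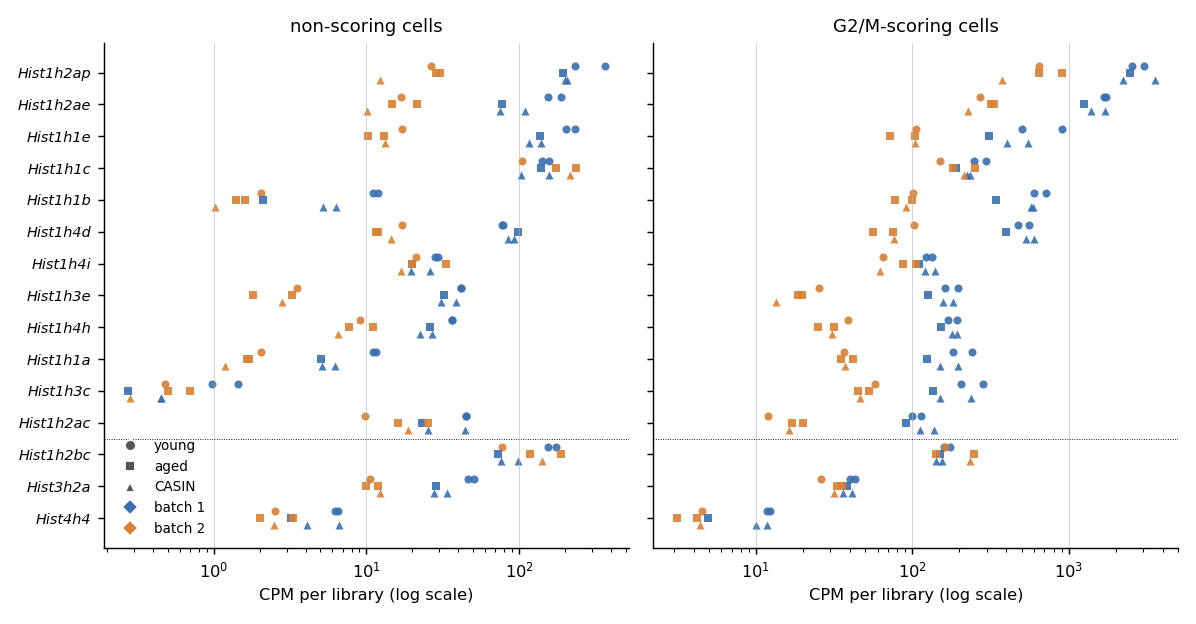
CPM per library on a log axis for the 12 followers with the most UMIs and, below the dotted line, the 3 genes that did not follow Top2a, with non-scoring cells on the left and G2/M-scoring cells on the right (circle young, square aged, triangle CASIN, blue batch 1, orange batch 2). Hist1h3c and Hist1h1b move furthest from left to right, and in non-scoring cells the orange points of Hist1h1e and Hist1h3e lie far below the blue ones, while those of Hist1h2bc and Hist1h1c do not.

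The sequencing batches differed in histone UMIs more than the mouse groups did, a comparison made after the values were seen. The 62 genes took 0.221–0.386% of all UMIs in the 5 libraries of batch 1 and 0.0974–0.134% in the 4 libraries of batch 2, with no overlap. In the fit used below, 52 of the 61 genes that passed the filter on low counts were lower in batch 2 and 0 were higher, beside 71.6% called in either direction and 37.5% called lower among all 13696 genes tested. The followers' median log2 fold change was -1.79, against -0.08 over all genes. Groups were represented in both batches, so that batch was a term of each fit that compared groups. Log2 differences within batch 1 and within batch 2 are given in that order.

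The genes were not lower in batch 2 by a common amount. Hist1h2an, an H2A gene with 32.5% of its end words in no other histone model, had 26.2, 24.6, 20.9, 23.2 and 22.1 CPM in the libraries young 1, young 2, aged 1, CASIN 1 and CASIN 2 of batch 1. In batch 2, it had 1.28, 0.845, 0.793 and 0.953 CPM in young 3, aged 2, aged 3 and CASIN 3, a log2 fold change of -4.59 (SE 0.11). Hist1h3e fell by 2.76 on the log2 scale. On the other hand, Hist1h2bc (0.45), Hist1h1c (0.18), Hist1h4i (-0.03), Hist3h2ba (-0.07) and Hist2h4 (-0.08) were among 9 genes with no call, together with Hist2h3c1, Hist2h3c2, Hist1h4b and Hist1h4f. All 16 H2A genes were lower in batch 2, compared with 4 of 5 H1, 14 of 16 H2B, 9 of 11 H3 and 9 of 13 H4 genes.

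Histone genes with a polyadenylation hexamer in the last 40 bases of a model had a median batch difference of -0.91 (15 genes, -2.34 to 0.18), and those without it had -1.89 (46 genes, -4.59 to 0.45). The ranges overlapped widely, and this grouping was made after the values were seen. The genes without it included some whose models ended at the stop codon, Hist1h1b and Hist1h2an among them, where no hexamer could be looked for. The groups thus also differed in how far their models ran, and its part in the medians was not tested. In non-scoring cells, the medians were -1.52 (12 genes) and -2.31 (29 genes). Hist1h2bc, with the highest value, was in the group without a hexamer near its end.

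**Figure D3:**
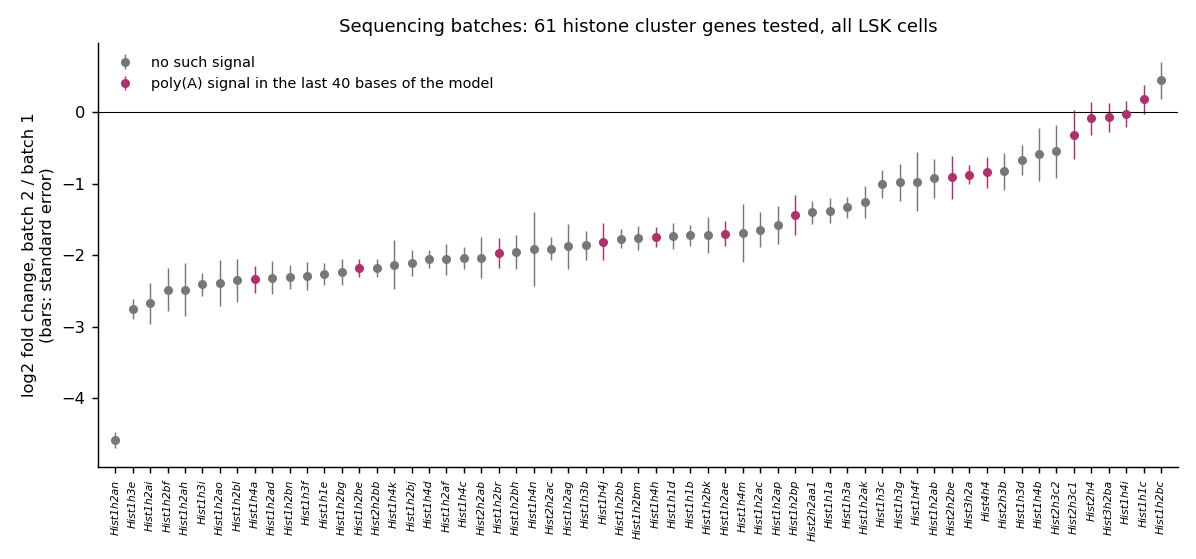
Log2 fold change of batch 2 over batch 1 with its standard error for the 61 histone cluster genes tested in all LSKs, ordered by value, in magenta where a model has a polyadenylation hexamer in its last 40 bases and in grey where none has. Most points lie below 0, from -4.59 for Hist1h2an to 0.45 for Hist1h2bc, and magenta points are more frequent toward the right. Grey points include genes whose models end at the stop codon, where no hexamer could be looked for.

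Proliferation genes did not move in the same way between the batches. Top2a differed by 0.25 (adjusted p = 0.367) in all LSKs and was higher in batch 2 in non-scoring cells (0.81, adjusted p = 0.00456), where 36 of 41 histone genes were lower in batch 2, beside 72.1% of 12773 genes called and 37.3% called lower, with a followers' median of -2.29. Top2a is in the G2/M list that chose the non-scoring cells, so its value there is a description. In all LSKs, Slbp, the gene of the stem-loop binding protein, differed by 0.27 (adjusted p = 0.0621). Among 13 replication genes, 2 were higher and 3 lower in batch 2, and among 16 genes of histone mRNA synthesis and processing, 9 were higher and 3 lower. The highest of these was Hinfp (2.13), which codes for an activator of H4 genes, followed by Upf1 (0.94), which acts in histone mRNA decay, and Npat (0.80), a coactivator of histone genes. In barcodes left out for over 10% mitochondrial UMIs, histone genes gave 0.0676–0.226% of UMIs in batch 1 and 0.0404–0.0603% in batch 2, again with no overlap, and in barcodes under 1000 UMIs the ranges of 0.0268–0.156% and 0.0262–0.0717% overlapped. Mki67 had 29.0–74.7 CPM in batch 1 and 89.7–135 CPM in batch 2 in all LSKs. S-scoring cells, in contrast, were 23.1–47.2% of cells in the libraries of batch 1 and 13.1–25.3% in batch 2. The ranges for G2/M-scoring cells were 6.57–14.2% and 12.8–20.6%. Igkc and the share of barcodes lost to mitochondrial UMIs moved with batch too. The part of the scoring shares, of Igkc and of the lost barcodes in these values was not tested.

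The make-up of histone UMIs also differed by batch in non-scoring cells. H2A genes gave 35.3–42.5% of histone cluster UMIs in batch 1 and 11.9–20.5% in batch 2, and H2B genes gave 13.6–17.5% and 26.3–32.9%. Within H1, with the replication-independent H1f0 and H1fx counted in, Hist1h1e gave 28.4–44.3% of UMIs in batch 1 and 3.55–8.64% in batch 2, whereas Hist1h1c gave 26.6–31.9% and 52.6–64.8%. None of these ranges overlapped between batches.

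In aged compared with young LSKs, the called change among histone cluster genes was a lower level of Hist1h1b. Hist1h1b (chr13:21779883-21780625, minus strand) had 227, 219.7 and 61.2 CPM in young 1, 2 and 3, 86.0, 35.9 and 42.4 in aged 1, 2 and 3, and 152, 152 and 39.4 in CASIN 1, 2 and 3. Young 1 and 2 were the highest of the 9 libraries, while young 3 of batch 2 was below aged 1 of batch 1, so the groups overlapped. The log2 fold change was -0.93 (SE 0.17, adjusted p = 0.0267, edgeR's quasi-likelihood test with batch as a term), with -1.37 within batch 1 and -0.62 within batch 2. It was 1 of 61 histone genes tested, beside 3.77% of the 13696 genes called in either direction and 0.46% called lower. The count was 0 without young 1, young 2 or CASIN 1, 4 without young 3, and 8 without aged 3 or CASIN 3, and DESeq2 called 14, beside 8.26% of all genes. All values here are sums over LSKs, in which fewer cells of a type and less RNA per cell cannot be told apart.

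Below the threshold, many of the genes leaned the same way. Of the 61 tested, 57 had a fold change below 0, compared with 47.4% of all genes, and 26 had an unadjusted p under 0.05, compared with 21.9% of all genes. The followers' median was -0.50, the median of the 3 genes that did not follow was -0.11, and that of all genes was 0.02. Without aged 1, the followers' median was -0.27, and the count of calls was 1. The genes share S-phase cells, batches and near-identical copies, so this count is a description.

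Hist1h3c had 72.6, 64.3 and 32.5 CPM in young, 24.3, 17.4 and 21.8 in aged, and 46.9, 33.4 and 15.0 in CASIN libraries. Every young library was above every aged one, and CASIN libraries spread from below the aged range into the young one. Its log2 fold change of -0.99 (SE 0.23, adjusted p = 0.0538) was the largest of the genes tested and did not pass the threshold, with -1.48 and -0.71 within batches. A further 5 genes, named after their values were seen, were lower in aged libraries with no overlap, which made 6 of 61, beside 4.48% of all genes. They were Hist1h3d, Hist1h3g, Hist1h2ab, Hist2h3b and Hist2h4, the last with 2.76, 2.41 and 2.72 CPM in young and 1.47, 0.845 and 1.68 in aged libraries (log2 fold change -0.96, adjusted p = 0.0953, with -0.77 and -1.10 within batches).

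Hist1h1e had 367, 261.5 and 56.3 CPM in young, 169, 34.2 and 47.7 in aged, and 187, 189 and 44.2 in CASIN libraries. The batches were further apart than the groups, and within each batch the young libraries were the highest. Its log2 fold change for aged against young was -0.69 (SE 0.17, adjusted p = 0.0599), with -0.87 and -0.45 within batches. Hist1h2ap had 864, 1203 and 398 CPM in young, 657, 414 and 311 in aged, and 940.4, 665 and 157 in CASIN libraries, with means of 822 ± 404, 461 ± 178 and 588 ± 397 CPM (SD, n = 3). Its groups overlapped, and the spread within a group was as wide as the differences between groups.

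Several genes weakly tied to Top2a differed in opposite directions in the batches. Hist1h2bc had 95.8, 126 and 91.5 CPM in young and 73.7, 101 and 182 in aged libraries, a difference of -0.56 within batch 1 and 0.59 within batch 2 on the log2 scale. Hist1h1c had 136, 146 and 109.8 CPM in young and 131, 143 and 214 in aged libraries, with -0.10 and 0.70 within batches. The H2A gene Hist1h2ac, which shares its promoter region with Hist1h2bc, had -0.65 and 0.67, and Hist3h2a had -0.28 and 0.12. For these 4 genes, the pooled fold change was not a direction that both batches shared, whereas Hist4h4 was below 0 in both (-0.75 and -0.30), with a pooled value of -0.50 (adjusted p = 0.297).

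**Figure D4:**
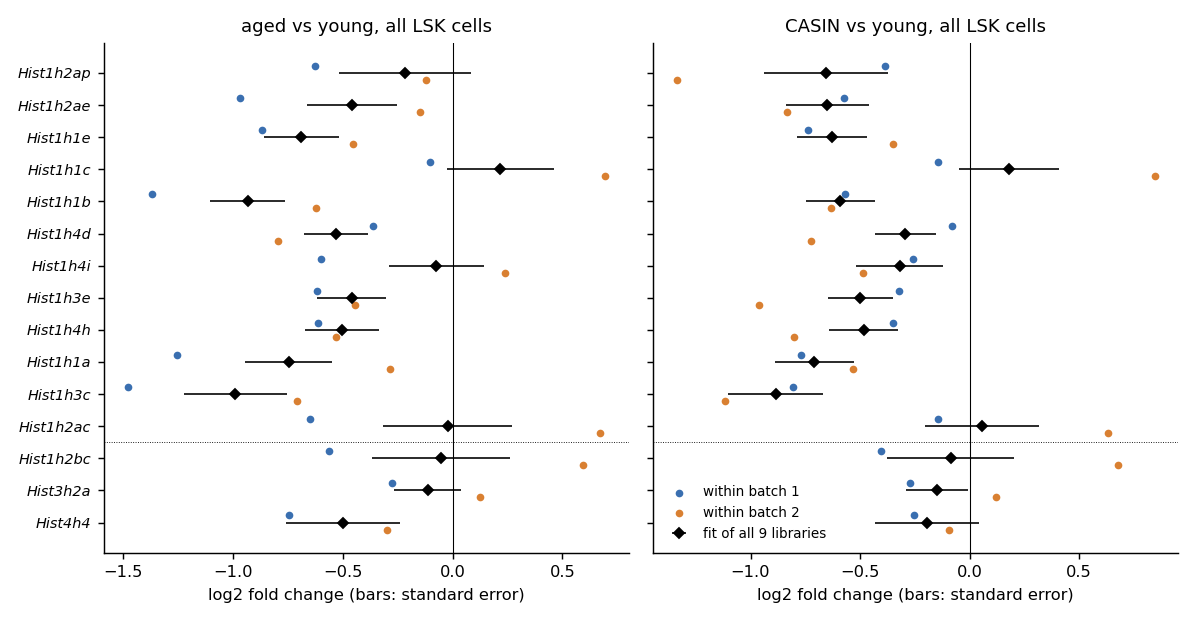
Log2 fold change with its standard error of 15 named histone cluster genes in all LSKs, aged against young on the left and CASIN against young on the right, as black diamonds for the fit of 9 libraries and as blue and orange dots for the differences within batch 1 and batch 2. Hist1h1b and Hist1h3c lie left of 0 in both batches and both panels, and the dots of Hist1h2bc and Hist1h2ac for aged against young fall on opposite sides of 0.

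CASIN-treated and aged LSKs did not differ in a called histone gene. The count was 0 of 61 with edgeR's quasi-likelihood test and 0 with DESeq2, beside 0% of the 13696 genes called by edgeR and 0.0073% by DESeq2. At an unadjusted p under 0.05, which 3.22% of all genes had, there was 1 gene, Hist2h4, an H4 gene named after its value was seen, with 2.28, 2.92 and 2.68 CPM in CASIN libraries. Each CASIN library was above each aged one, as for 1.31% of all genes, and the log2 fold change was 0.95 (SE 0.29, adjusted p = 0.986), with 0.76 and 1.09 within batches. Hist1h2ap marked the lower end with -0.44, and within batches it had 0.24 and -1.21. A total of 23 of 61 genes were below 0.

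Against young LSKs, with the same young libraries as controls as in the comparison of aged mice, CASIN-treated LSKs had 0 of 61 genes called by edgeR, 21 at an unadjusted p under 0.05 and 11 called by DESeq2. Among all genes, 3.73% were called by edgeR, 24.0% had an unadjusted p under 0.05 and 9.46% were called by DESeq2. Nearest to the threshold were Hist1h3c (-0.89, adjusted p = 0.0562), Hist1h1e (-0.63, adjusted p = 0.0634) and Hist1h1b (-0.59, adjusted p = 0.0714). Within batches, Hist1h3c had -0.81 and -1.11, Hist1h1e had -0.74 and -0.35, and Hist1h1b had -0.57 and -0.63. Fold changes below 0 were found for 55 of the 61, and the followers' median was -0.39. The count without aged 1, which is in neither group but shares the estimate of the spread, was 11. It was 6 without young 3 and 2 without aged 3.

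Since sums over all LSKs mix cell cycle states, shares of scoring cells were compared too. S-scoring cells were 47.2, 34.9 and 20.6% of cells in young, 23.9, 25.3 and 18.1% in aged, and 29.8, 23.1 and 13.1% in CASIN libraries. Young 1 and 2 stood highest, and all groups overlapped. Aged minus young was -11.8 percentage points (p = 0.3, two-sided exact permutation test, for which 0.1 is the smallest p with 3 against 3 libraries) and 1.03 within batch 2. CASIN minus aged was -0.405 points (p = 0.9, exact permutation test) and CASIN minus young was -12.2 points (p = 0.3, exact permutation test). G2/M-scoring cells were 15.6 ± 4.44% in young, 14.5 ± 6.87% in aged and 10.8 ± 2.04% in CASIN libraries (SD, n = 3), with exact permutation p-values of 0.8 for aged against young, 0.4 for CASIN against aged and 0.2 for CASIN against young. The permutation tests took no account of batch. In batch 1, G2/M-scoring cells were 12.0 and 14.2% in young 1 and 2 and 6.57% in aged 1. In batch 2, they were 20.6% in young 3 and 18.4 and 18.5% in aged 2 and 3. Aged libraries were thus below the young libraries of their own batch, a difference that was not tested within batches.

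Within non-scoring cells, Hist1h1e was lower in both aged and CASIN-treated mice than in young mice. Its last part lies inside Hist1h2be on the same strand, so its counts are uncertain. It had 234, 202 and 17.2 CPM in young, 137, 10.3 and 13.2 in aged, and 116, 139.9 and 13.2 in CASIN libraries. Libraries of batch 2 were lowest in every group, and in each batch the young libraries were above the others. The log2 fold change for aged against young was -0.61 (SE 0.14, adjusted p = 0.0374), with -0.63 and -0.50 within batches. It was 1 of the 41 genes tested, beside 6.1% of 12773 genes called and 1.15% called lower, and 7 had an unadjusted p under 0.05, as had 24.1% of all genes. With the mitochondrial limit at 5%, Hist1h1e was not called for aged against young and Hist1h1b was. DESeq2 called 2, beside 7.89% of all genes. Leaving out young 1, young 2, aged 1, aged 2 or CASIN 3 gave 0 calls, and leaving out young 3 gave 6.

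For CASIN against young in these cells, 3 of 41 genes were lower, beside 7.23% of 12773 genes called in either direction and 1.45% called lower. Hist1h1e differed by -0.65 (SE 0.13, adjusted p = 0.0219), with -0.77 and -0.35 within batches. Hist1h1a, the linker histone H1.1, had 11.01, 11.6 and 2.06 CPM in young and 5.10, 6.23 and 1.19 in CASIN libraries, with a log2 fold change of -0.95 (SE 0.22, adjusted p = 0.0310) and -0.98 and -0.68 within batches. The H2A gene Hist2h2ac had 17.7, 17.3 and 3.99 CPM in young and 10.2, 9.40 and 2.88 in CASIN libraries, with -0.74 (SE 0.18, adjusted p = 0.0408) and -0.82 and -0.41 within batches. For all 3 genes the young libraries were above the CASIN libraries of their own batch. The count was 0 without young 1, young 2, CASIN 1 or CASIN 3, 10 without young 3, 7 without aged 1 and 5 without aged 3. DESeq2 called 5, beside 10.1% of all genes.

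CASIN against aged gave 0 of 41 genes in non-scoring cells by edgeR, beside 0% of all genes, 0 by DESeq2, beside 0.0313%, and 3 at an unadjusted p under 0.05, as had 3.04% of all genes. These were Hist2h4 (1.47, with 1.04 and 1.39 within batches), Hist1h2ak (1.41, with 1.32 and 0.87) and Hist2h2ac (-0.54, with -0.43 and -0.52). Aged and young values of Hist1h2bc and Hist1h1c again went apart by batch in these cells. Hist1h2bc had 154, 174 and 77.5 CPM in young and 73.2, 118 and 189 in aged libraries, with -1.12 within batch 1 and 1.00 within batch 2, and Hist1h1c had -0.06 and 1.00.

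S-scoring cells had no called gene in any comparison of groups. Of 54 genes tested, 0 were called by edgeR for aged against young, 0 for CASIN against aged and 0 for CASIN against young, beside 0.675%, 0% and 0.415% of 11563 genes, and DESeq2 called 0 in each, beside 1.21%, 0% and 0.804%. At an unadjusted p under 0.05 there were 7, 2 and 3 genes in the same order, beside 13.2%, 6.45% and 9.76% of all genes. Between aged and young S-scoring cells, Hist1h1b differed by -0.60 (adjusted p = 0.173, with -0.28 and -0.89 within batches) and Hist1h3c by -0.74 (adjusted p = 0.222, with -0.47 and -1.09). The young and aged libraries did not overlap for 2 of the 54 genes, Hist1h3c among them. The share of all genes without overlap was not computed in these cells.

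Non-scoring cells were then compared between a gate on Procr, the gene of the stem cell marker EPCR (149–726 cells per library), and a gate on Flt3, a receptor of multipotent and lymphoid progenitors (69–357 cells). Both gates came from the same library, so library was a block. Of the 19 histone cluster genes that passed the filter on low counts, 9 were higher in the Flt3 gate and 0 lower, beside 33.6% called in either direction and 16.9% called higher among 9169 genes. Hist1h2bg, an H2B gene, changed most. It had 8.90, 11.5, 1.76, 5.20, 0.554, 1.65, 2.63, 5.68 and 1.51 CPM in the Procr gate of young 1 to 3, aged 1 to 3 and CASIN 1 to 3, and 22, 22.5, 3.43, 10.9, 4.73, 5.55, 18.2, 23.0 and 3.11 in the Flt3 gate. The Flt3 gate was higher in 9 of 9 libraries, with a log2 fold change of 1.55 (SE 0.21). The lowest of these values rest on few UMIs. Hist1h2bg was tested in 11 alternative fits, against 17 for the other genes named in this comparison.

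The replication-dependent H2A genes Hist1h2ap (0.69, SE 0.09) and Hist1h2ae (0.67) were higher in the Flt3 gate in 9 of 9 libraries. Hist1h1d (0.58), Hist1h4i (0.48) and Hist1h4h (0.41) were higher in 8 of 9 libraries, and Hist1h3e (0.39) and Hist3h2a (0.32) passed the threshold with adjusted p-values of 0.0408 and 0.0389. Hist1h2bc, which did not follow Top2a, was higher in the Flt3 gate in 9 of 9 libraries as well, by 0.46 (adjusted p = 0.0023). Its CPM was 141, 126, 81.5, 67.1, 112, 172, 55.8, 87.8 and 136 in the Procr gate and 165, 174, 85.7, 155, 145, 194, 128, 121 and 151 in the Flt3 gate. The linker histones Hist1h1c (0.04) and Hist1h1e (0.10) were not called.

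Top2a differed by 0.64 (adjusted p = 0.00337) between the gates among cells that scored for neither phase. It is in the G2/M list that chose these cells, so its value here is a description. Its part in the histone values was not tested. Of 12 replication genes, 7 were higher in the Flt3 gate, among them Mcm2 (0.88) and Mcm5 (0.76) of the replicative helicase and its loading factor Cdt1 (0.60). Slbp differed by 0.04. Mcm5, Slbp and further replication genes are in the S list that also chose these cells, so their values are a description too. Without CASIN 2, 5 histone genes were called in place of 9, and DESeq2 called 5, beside 26.2% of all genes. The gate difference did not itself differ between aged and young mice for any of the 19 genes by edgeR (0.0109% of 9169 genes were called), and 2 had an unadjusted p under 0.05, as had 6.86% of all genes.

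**Figure D5:**
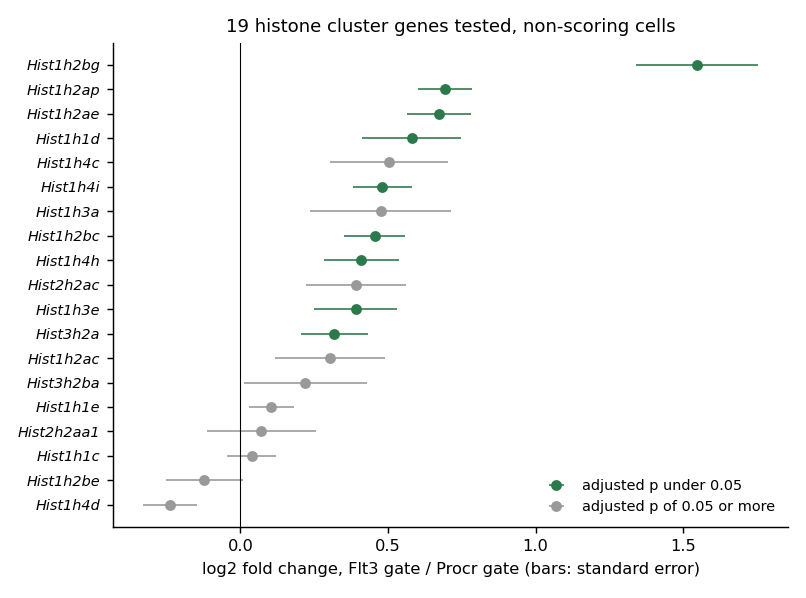
Log2 fold change of the Flt3 gate over the Procr gate with its standard error for the 19 histone cluster genes tested in non-scoring cells of 9 libraries, green where the adjusted p is under 0.05. Hist1h2bg lies furthest to the right at 1.55, and Hist1h1c and Hist1h1e lie near 0.

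Histone genes outside the clusters gave a contrast in the linker histones. H1f0, the replication-independent H1.0 known from cells that have left the cycle, had 41.2, 42.6 and 26.2 CPM in young, 81.4, 41.5 and 43.4 in aged, and 60.8, 71.8 and 56.1 in CASIN libraries. CASIN libraries were above all young ones, and aged 2 of batch 2 was above young 3 of its batch. H1f0 was higher in aged (0.79, adjusted p = 0.0269) and CASIN-treated LSKs (0.81, adjusted p = 0.0215) than in young ones, and in non-scoring cells by 0.97 (adjusted p = 0.0188) and 1.02 (adjusted p = 0.0117). Within batches, the 4 differences were 0.96 and 0.72, 0.64 and 1.10, 0.97 and 1.20, and 0.72 and 1.62. In non-scoring cells, H1f0 made up 10.2, 9.74 and 10.8% of H1 UMIs (Hist1h1a to Hist1h1e, H1f0 and H1fx) in young, 21.5, 17.6 and 12.4% in aged, and 20.3, 18.9 and 18.1% in CASIN libraries, with young below the others in each case. In the gates it was lower in Flt3 cells (-1.04). The Procr gate held 166, 169 and 149 of 866, 1109 and 698 non-scoring cells in young libraries. In aged libraries it held 379, 358 and 370 of 1068, 929 and 1078. In CASIN libraries it held 242, 298 and 726 of 680, 1155 and 1760. Mean H1f0 was 53.7, 77.4 and 97.1 CPM in the Procr gate of young, aged and CASIN libraries. In the Flt3 gate it was 31.8, 45.3 and 33.4 CPM. The part of the cell mix in the group differences was not tested.

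H1f0 was the 1 gene called of 11 replication-independent histones for aged against young in all LSKs. Of 16 genes of histone mRNA synthesis and processing, 0 were called, and Slbp had -0.46 (adjusted p = 0.0985, with -0.74 and -0.19 within batches). Among 18 histone chaperones, 1 was called, Asf1a, which hands over H3 and H4 (-0.34, adjusted p = 0.0490, with -0.43 and -0.28 within batches). None of 13 replication genes was called by edgeR, with a median of -0.33, and Top2a differed by -0.40 (adjusted p = 0.437), with -1.20 within batch 1 and 0.07 within batch 2. Top2a had 188, 176 and 182 CPM in young and 79.0, 201 and 173 in aged libraries, so that aged 1 was the lowest and the others overlapped with young. In non-scoring cells, Cenpa, the centromeric H3 variant, was lower in aged (-0.53, adjusted p = 0.0277, with -0.70 and -0.40 within batches) and in CASIN-treated mice (-0.50, adjusted p = 0.0252, with -0.52 and -0.47) than in young mice. Cenpa is in the G2/M list whose score chose these cells, so these differences are a description. Between the batches it differed by more, with a log2 fold change of 2.69 for batch 2 over batch 1 in these cells.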

How the data were processed

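Single-cell RNA libraries of LSKs from 3 young, 3 aged and 3 CASIN-treated aged samples were used, and no deposited column of values was left out (0 unused). The authors mapped reads to GRCm38/mm10 (Ensembl 93) and made the deposited counts, UMIs per gene and barcode, with Cell Ranger 3.1.0. Barcodes with 1000 to 40000 UMIs, at most 6000 genes and at most 10% mitochondrial UMIs were kept. Raw counts were summed per library (19237354–42780953 UMIs before filtering) and tested with edgeR 4.0.16 (quasi-likelihood, TMM, filterByExpr, batch plus group, Benjamini-Hochberg over all genes, adjusted p under 0.05). For gates (Procr at least 1 UMI and Flt3 0, or the reverse, after thinning each cell to 4000 UMIs), library was a block. DESeq2 1.42.0, TMM against DESeq2 size factors, no count filter, no batch term, replicate blocks, fits of 2 groups, a residual filter (0.4), a mitochondrial limit of 5%, thinning to 2000 UMIs, Scrublet (scanpy 1.11.5; 92 doublets, kept in the sums otherwise) and leaving out each library were alternatives. CPM are scaled to all UMIs of the summed cells. S and G2/M scores were mean log levels of Seurat's lists (43 and 54 genes) less those of control genes, cut at 0. Shares of cells were tested over libraries by exact permutation (two-sided). On simulated counts for aged against young in all LSKs (13462 genes), edgeR recovered 63.6% of genes changed by a log2 fold change of 1 and 13.3% at 0.5, with 5% false calls. The simulated counts held no batch difference, so these rates may not hold for genes that differed by batch, as most histone cluster genes did.

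Genes named with values were those not following Top2a, the 12 followers with the most UMIs, up to 6 called genes per comparison, those nearest to a threshold, and, of other lists, up to 3 called genes plus Top2a, Slbp and H1f0. The members and lists were chosen with earlier results of these data known. Sequences came from GENCODE M21 models and RefSeq promoters (GRCm38.p6), searched with Python 3.11.15.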

Additional observations from a re-analysis of the deposited data

How the results depend on the processing

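Counts of called histone cluster genes changed with the libraries used and with the settings of the fit. For aged against young in all LSKs (1 gene), DESeq2 called 14 genes, no filter on low counts 9, and the residual filter 2, while no batch term and a fit of those groups alone called 0. For CASIN against young (0), DESeq2 called 11, no filter 7 and a fit of those groups alone 12. Leaving out cells with shared barcodes, an alternative chosen after seeing the data, gave 2 in both comparisons. In non-scoring cells, aged against young (1) went to 2 with DESeq2, 4 with no filter, and 0 without the batch term or with those groups alone. CASIN against young (3) went to 5 with DESeq2, 10 with no filter, 0 without the batch term, 7 with those groups alone and 6 with thinning to 2000 UMIs. In S-scoring cells, no filter gave 7 for aged against young, 1 for CASIN against aged and 4 for CASIN against young, and thinning to 2000 UMIs gave 1 for aged against young. For the gates (9), DESeq2 called 5 and no filter 14, and Hist1h4d was called lower in the Flt3 gate with the 5% mitochondrial limit, without doublets, without young 1 and without CASIN 1. Except for DESeq2, the share of all genes called is not given beside counts from alternative fits or with 1 library left out. A rise or fall of these counts is therefore not a result about histone genes in particular. The cause was not tested for any of these.

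Leaving out 1 library at a time gave 0 to 8 called genes for aged against young and 0 to 11 for CASIN against young in all LSKs, 0 to 6 and 0 to 10 in non-scoring cells, and 5 to 9 between the gates. The share of S-scoring cells then ranged from -18.6 to -5.34 points for aged against young, -4.31 to 4.04 for CASIN against aged and -19.0 to -5.75 for CASIN against young, and that of G2/M-scoring cells from -3.09 to 2.89, -7.69 to -1.71 and -6.59 to -2.32. For CASIN against aged, the S-scoring share was 0.193 points with thinning to 2000 UMIs, 2.52 within batch 1 and -8.53 within batch 2, and the G2/M-scoring share was 3.23 within batch 1. For aged against young, the S-scoring share was 1.03 within batch 2. In all, 161 of 211 alternative counts equalled the count reported or were within 1.5 times of it, counts of 0 beside a reported 0 among them. The 54 genes placed as following Top2a were 61 with a limit of 0.05, 47 with 0.15, 55 with Mki67 in place of Top2a and 56 with Spearman's correlation. Hist1h2bc stayed below the limit in each case. Hist3h2a and Hist4h4 were above the limit of 0.05, as was Hist3h2a with Mki67 and Hist4h4 with Spearman's correlation at the limit used.

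With the replicate number as a block, 0 genes were called for aged against young in all LSKs and in non-scoring cells. Deviations of same-numbered libraries from their group means correlated at 0.71 to 0.88 where both lay in 1 batch and at -0.66 to -0.58 for aged 2 against young 2 or CASIN 2, which lay in the other batch. After batch and group were fitted, they correlated at -0.48 to 0.23, so the numbers were not taken to pair libraries. Depth limits the 5 genes too sparse to place, and 19 of 62 genes were high enough for the test between gates.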
